A study of Mus musculus with 84 samples.

Results

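Krüppel-like factors are zinc-finger proteins that bind CACCC and GC-rich elements, and 10 of their genes were followed here through the histone marks of mouse adipocyte nuclei: Klf2, Klf3, Klf4, Klf5, Klf6, Klf7, Klf9, Klf10, Klf13 and Klf15. They were chosen by name, as 10 of the 21851 protein-coding genes of the GENCODE annotation of GRCm38, and all 10 were found. For each gene, the peaks of 84 CUT&Tag libraries were read at the promoter (2000 bp either side of each start site), over the gene body and in the 50 kb on either side. The libraries covered H3K4me3 (21 libraries), H3K27me3 (20), H3K27ac (21) and H3K4me1 (22).

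All animals were AdipoERCre x NuTRAP mice, in which a tamoxifen-inducible Cre active in adipocytes switches on a reporter that tags their nuclei and ribosomes, and the tagged nuclei came from epididymal fat. Every group carried both transgenes and received tamoxifen at 4 to 5 weeks of age, before diets began. In the 12-week cohort, C mice stayed on chow to 18 weeks of age and H mice had 12 weeks of high-fat diet to the same age, while HC mice had 12 weeks of high-fat diet followed by 8 weeks of chow to 26 weeks of age, with CC_s as chow controls of that age. The 25-week cohort repeated this with 25 weeks of high-fat diet: HH ended with the diet at 31 weeks of age beside CC_l controls, and HHC went on to 8 weeks of chow and ended at 39 weeks of age beside CCC controls. Per the paper, controls ate a low-fat chow during the high-fat phase, and all mice then received a different standard chow during weight loss. CC_s and CCC therefore changed feed as well. H and HH are the obese groups, HC and HHC the groups after weight loss. Each mark had 2 or 3 libraries per group, 12 groups of 2 and 20 of 3. The paper describes the marks as assayed on nuclei from the same fat depot, so they do not come from separate sets of animals. Cohort and library preparation cannot be told apart, so each comparison was made within a cohort.

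A peak list records where the signal of a library passed the caller's cut-off, so a promoter without a peak did not reach the cut-off and was not shown to lack the mark. The libraries held 11249 to 46397 peaks, and their read depth was unknown. The mean share of a promoter covered by peaks, taken over all genes, had a median over the libraries of 31.7% in H3K4me3 (10.7 to 44.9%), 16.2% in H3K27ac (3.6 to 30.6%), 8.04% in H3K27me3 (1.25 to 16%) and 5.12% in H3K4me1 (1.21 to 28.6%). It was lower in the 3 H libraries (10.7 to 23.9% for H3K4me3, 3.6 to 9.74% for H3K27ac) than in the 3 C libraries (29.2 to 32.9% and 13.9 to 16.5%). The treatment field of 4 H3K4me3 libraries of the 25-week cohort disagreed with their titles, which were used here. Both HH libraries of that mark are among them, so no H3K4me3 value for HH could be given without them. Of 10 adipocyte marker promoters, all 10 carried H3K4me3 in every C, CC_l, HH and CCC library, 8 or 9 in the H and HC libraries, 9 or 10 in CC_s and 6 to 10 in HHC. Promoters of macrophage genes carried it too, 9 or 10 of 10 in the HH libraries and 8 or 9 in HHC against 2 to 5 in CC_l and CCC. In such pooled nuclei, fewer cells of a type and less mark per cell cannot be told apart.

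In adipose tissue the family is known for both driving and restraining fat-cell formation. Klf4 and Klf5 act early in adipogenesis, around the C/EBP factors that in turn activate Pparg, the master regulator of adipocytes, and Klf9, Klf13 and Klf15 are placed later on the same path. Klf6 favours differentiation by repressing the preadipocyte gene Dlk1. Klf2, Klf3 and Klf7 restrain it. Klf15 is also induced by glucocorticoids and fasting and takes part in glucose uptake and amino acid and lipid metabolism in mature fat cells, and Klf10 is a TGF-beta-induced, circadian member. H3K4me3 marks active start sites, H3K27ac active promoters and enhancers, H3K4me1 enhancers and the edges of promoters, and H3K27me3 chromatin repressed by Polycomb.

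The promoters printed are those of Klf15 and Klf4, where promoter differences were called, and of Klf9 and Klf2, whose values are described without a promoter call. Klf10, the other gene with a promoter call, is named only. The 250 bases before each start site are given from RefSeq on GRCm38.p6, with capitals on CACCC or its reverse complement GGGTG, the core that Krüppel-like factors themselves bind, and on CCAAT or its reverse complement ATTGG. Klf15 lies at chr6:90462326-90462575 on the plus strand, Klf9 at chr19:23140976-23141225 on the plus strand, Klf4 at chr4:55532476-55532725 on the minus strand and Klf2 at chr8:72318812-72319061 on the plus strand. The RefSeq start of Klf2 lies inside the GENCODE gene, and that of Klf4 just upstream of it.
Klf15 promoter: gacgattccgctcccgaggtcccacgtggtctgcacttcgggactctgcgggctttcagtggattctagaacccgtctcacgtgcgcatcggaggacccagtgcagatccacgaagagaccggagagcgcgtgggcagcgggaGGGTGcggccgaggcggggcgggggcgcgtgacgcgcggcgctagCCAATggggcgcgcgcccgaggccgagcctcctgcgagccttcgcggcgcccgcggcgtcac
Klf9 promoter: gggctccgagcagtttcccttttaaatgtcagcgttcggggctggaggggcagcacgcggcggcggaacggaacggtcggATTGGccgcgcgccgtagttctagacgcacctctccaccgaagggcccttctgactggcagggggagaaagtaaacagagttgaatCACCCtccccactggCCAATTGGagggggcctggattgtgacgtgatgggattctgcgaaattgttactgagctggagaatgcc
Klf4 promoter: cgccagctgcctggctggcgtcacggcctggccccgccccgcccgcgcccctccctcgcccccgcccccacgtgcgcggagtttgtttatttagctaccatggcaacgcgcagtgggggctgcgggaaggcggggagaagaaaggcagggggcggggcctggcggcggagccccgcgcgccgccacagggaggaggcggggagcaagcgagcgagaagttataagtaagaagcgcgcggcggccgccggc
Klf2 promoter: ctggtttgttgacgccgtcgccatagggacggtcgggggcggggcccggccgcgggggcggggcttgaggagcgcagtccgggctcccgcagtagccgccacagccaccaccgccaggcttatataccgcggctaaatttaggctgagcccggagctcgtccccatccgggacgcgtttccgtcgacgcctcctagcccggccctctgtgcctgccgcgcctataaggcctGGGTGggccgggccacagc

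Of the 10 genes, 8 had a RefSeq promoter sequence, all but Klf5 and Klf10. CACCC on either strand stood in 6 of the 8, against 52.0% of 32851 promoters, and CCAAT in 4 of the 8, against 33.8%. Neither motif stood in the Klf4 sequence printed above. None of the 8 held TATAAA (12.4% of all promoters), the cyclic AMP response element TGACGTCA (1.55%), the glucocorticoid receptor element AGAACA (16.1%) or the MEF2-like element TATTTATA (1.56%), all read on both strands. The promoters were rich in CpG, with 13 (Klf7) to 37 (Klf15) dinucleotides in the 250 bases where the median over all promoters was 6 and the upper quartile 16.

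Across the 84 libraries the 10 promoters fell into clear classes of marking. H3K4me3 was the most constant mark: 9 of the 10 promoters had a peak in 21 of 21 libraries, and Klf4 had one in 19, the exceptions being CC_s replicates 1 and 2, which were among the H3K4me3 libraries with the lowest mean coverage (15.4 and 17.2%). H3K27ac marked Klf6, Klf9, Klf13 and Klf15 in all 21 libraries, Klf5 in 2. H3K4me1 marked Klf3 and Klf13 in all 22 libraries, Klf15 in 21, and Klf5 in 2.

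Klf5 stood apart from the rest of the family, as the only gene whose promoter carried H3K27me3 in most libraries. It had a peak of this repressive mark in 15 of 20 libraries, 8 of 10 from controls and 7 of 10 from obese or formerly obese mice, beside narrow H3K4me3, which covered 9.32 to 59.7% of its window with a median of 37.6%. The promoters of Klf2, Klf6, Klf9, Klf10 and Klf13 carried no H3K27me3 peak in any of 20 libraries. Klf3, Klf7 and Klf4 carried one in a single library each, CC_l replicate 1 for Klf3 and Klf7 (14.4 and 42.9% covered) and HHC replicate 1 for Klf4 (9.02%). Klf15 was between these, with 1 of 10 control and 7 of 10 obese or formerly obese libraries marked.

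**Figure D1:**
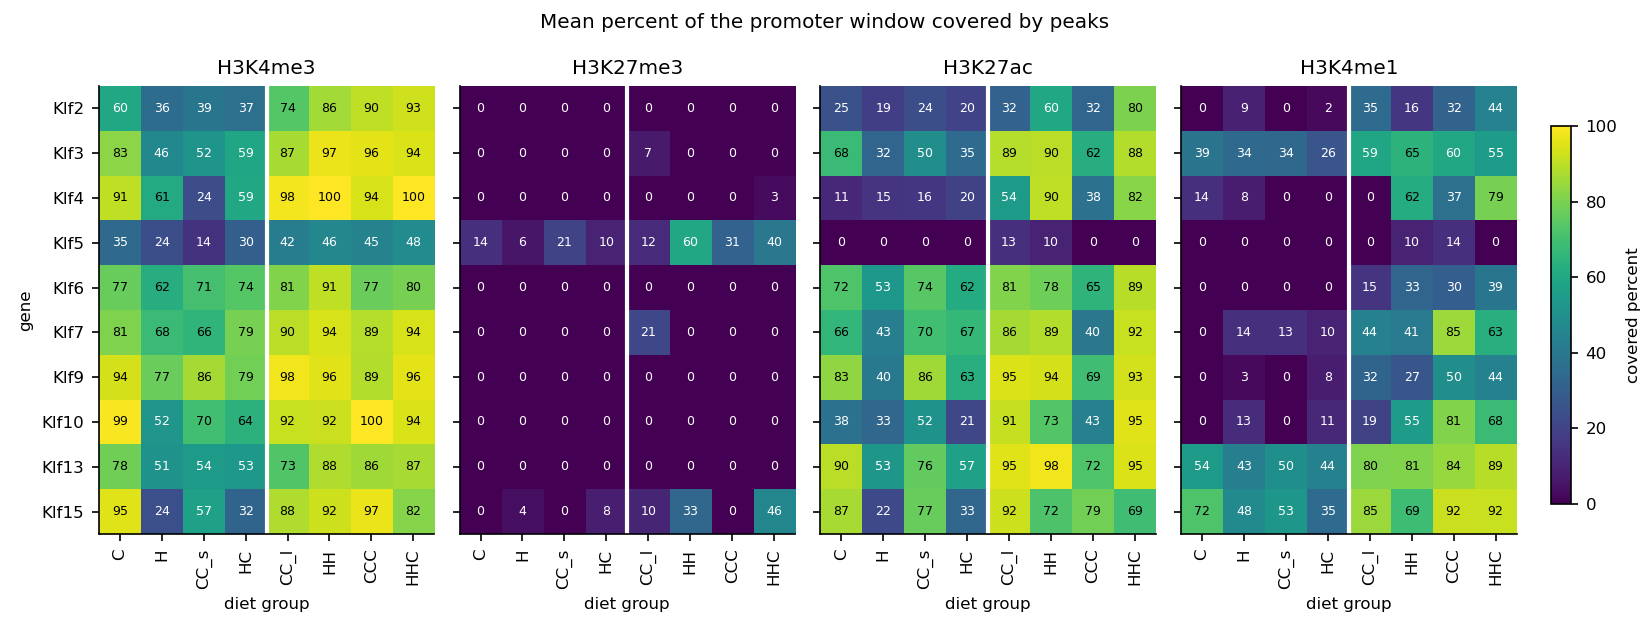
Mean percent of the promoter window covered by peaks for the 10 Krüppel-like factor genes (vertical axis) in the 8 diet groups (horizontal axis), 1 panel per mark, 2 or 3 libraries per group; colour runs from 0 to 100%. Dark cells are low and bright cells high. Outside Klf5 and Klf15 the strongest H3K27me3 cell is Klf7 in CC_l, which rests on 1 library at 42.9%. Klf15 is darker in H3K4me3 and H3K27ac in H and HC, and Klf4 is brighter in H3K4me1 in HH and HHC.

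Diet was first asked of presence alone. A promoter was counted as gained when every library of a diet group and no library of its age-matched controls had a peak, and as lost in the reverse case. Over 10 genes, 4 marks and 4 comparisons, 160 values in all, there were 2 such changes, both gains: H3K27me3 at Klf15 in HHC against CCC, and H3K4me1 at Klf4 in HH against CC_l. Over all 21851 genes, the share of promoters gained or lost in H, HC, HH and HHC against their controls was 2.9, 0.993, 1.99 and 2.1% for H3K27me3, and 0.911, 0.316, 2.7 and 4.47% for H3K4me1. For H3K4me3 it was 1.71, 0.339, 1.8 and 1.76%, and for H3K27ac 2.08, 0.796, 0.851 and 2.38%, and no Krüppel-like factor promoter was gained or lost in either. With 10 genes per comparison, a single change is 10% of them, so the counts were too small to be set above this background.

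Coverage was then compared with limma on all genes with a peak in at least 2 libraries, in which all 10 genes could be tested for H3K4me3, H3K27ac and H3K4me1, and Klf5 and Klf15 alone for H3K27me3. A value is the difference in the percent of the window covered, in percentage points, and was called at an adjusted p under 0.05. Averaged over both cohorts, obese or weight-loss minus control, none of the 64 values was called. An unadjusted p under 0.05 was reached by 10 of them with limma and by 3 with the exact permutation test over libraries. The lowest adjusted p was 0.0578 by limma and 0.265 by permutation. With 60 to 200 relabellings, the smallest possible exact p was 0.005 to 0.0167. After adjustment over all promoters, the permutation test therefore had little or no room to make a call. Over all promoters the share called for obese and for weight loss was 0.626 and 2.27% in H3K4me3, 0.572 and 4.74% in H3K4me1, 0.0753 and 0.0301% in H3K27ac, and 1.54 and 2.93% in H3K27me3. Within a single cohort, 5 promoter differences were called, at Klf15, Klf10 and Klf4.

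**Figure D2:**
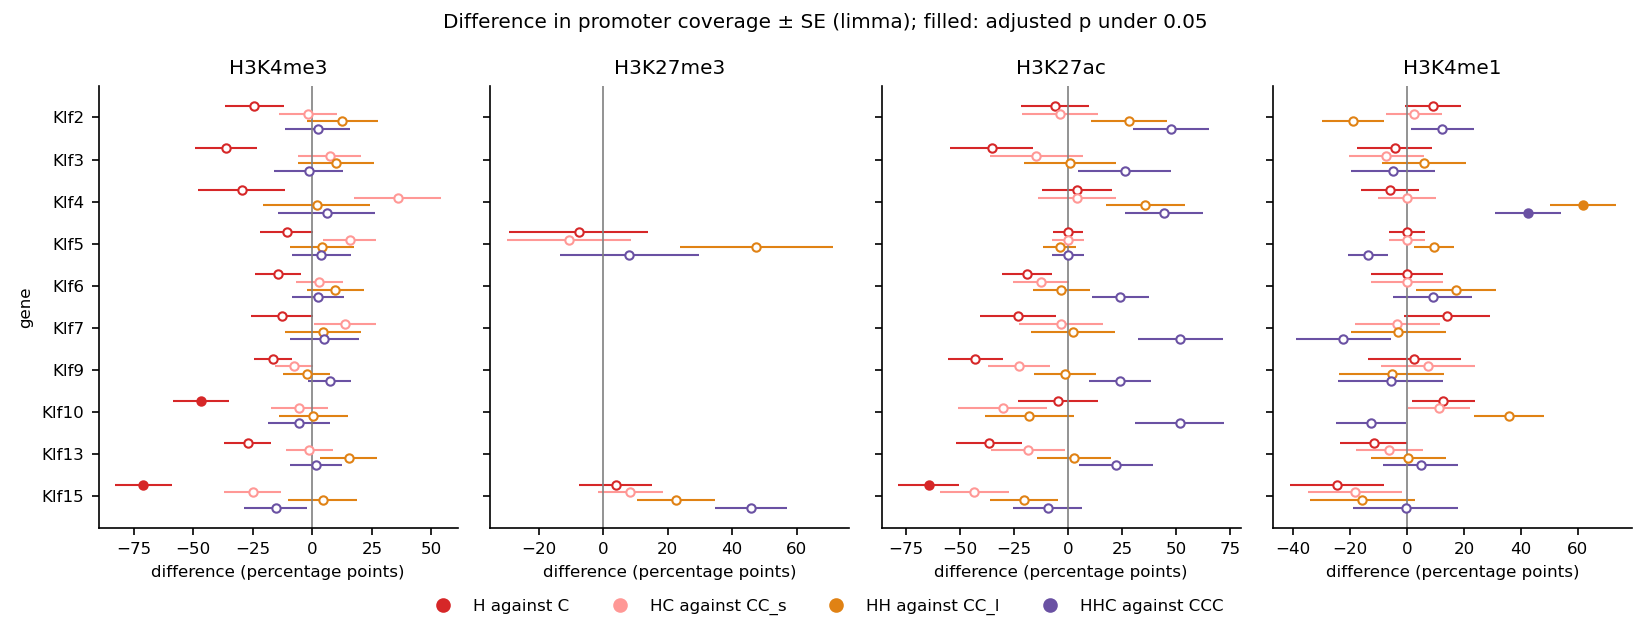
Difference in promoter coverage, diet group minus its age-matched controls in percentage points (horizontal axis, bars are the standard error of limma), for each gene (vertical axis), mark and comparison; filled points had an adjusted p under 0.05. The 5 filled points are Klf15 and Klf10 for H3K4me3 and Klf15 for H3K27ac in H against C, and Klf4 for H3K4me1 in HH against CC_l and in HHC against CCC.

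Klf15 (chr6:90462576-90475238, plus strand) had the largest promoter difference that was called in the family. Its 4 annotated start sites lie within one merged window of 7825 bp. H3K4me3 covered 94.5, 97.9 and 93.6% of it in the C libraries and 22.3, 17 and 33.9% in the H libraries. Every H library was below every C library, as it was for 41.6% of all promoters tested. The mean fell from 95.3% ± 2.27 to 24.4% ± 8.64 (SD, n = 3 each), a difference of -70.9 points (SE 11.9, limma adjusted p = 0.00507). Over all promoters the median difference in H against C was -16.5 points, and 13.9% were called, nearly all of them lower.

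After weight loss from the 12-week diet the Klf15 promoter was still only partly covered, but its controls varied. The HC libraries read 45.5, 17.8 and 34% and the CC_s libraries 25.2, 55.7 and 91.3%, so the groups overlapped, and the difference of -25.0 points (SE 11.9) was not called (limma adjusted p = 1.0). In the 25-week cohort the promoter was broadly covered in every group. CC_l read 79.8 and 96.2%, HH 90.2 and 94.4%, CCC 94.5 and 100%, and HHC 76.8, 93.5 and 75.4%. Neither difference was called there (HH 4.34 points, SE 14.6, adjusted p = 0.982 and HHC -15.4 points, SE 13.3, adjusted p = 0.794, both limma). The change with obesity itself differed between the cohorts, by 75.3 points (SE 18.8, limma adjusted p = 0.046), a call made for 2.39% of promoters and kept in 12 of 28 alternative settings.

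H3K27ac at Klf15 was also lower in H than in C. The C libraries read 88.8, 94.8 and 76.9% and the H libraries 20.9, 12.9 and 32.9%, and all H values lay below all C values, as for 35.6% of promoters. The difference was -64.6 points (SE 14.2, limma adjusted p = 0.0292), where the median over all promoters was -12.8 and 3.13% were called. HC stayed low, at 37.7, 28.6 and 33.4% (33.2% ± 4.55, SD, n = 3), below the 81.2 and 72.2% of CC_s, a separation seen for 14.8% of promoters. That difference of -43.5 points (SE 15.9) was not called (limma adjusted p = 1.0). In the 25-week cohort 2 of 3 HH libraries (34.8, 93.2 and 87.9%) and 2 of 3 HHC libraries (56.5, 94.9 and 56.5%) lay below both their controls (CC_l 94.6 and 90%, CCC 91.7 and 66.0%), and neither difference was called (HH -20.4 points, SE 15.9, adjusted p = 0.964 and HHC -9.53 points, SE 15.9, adjusted p = 0.658, both limma).

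With every library scaled to the same mean coverage, the H against C difference of Klf15 was -42.7 points for H3K4me3 (limma adjusted p = 0.139) and -15.0 points for H3K27ac (limma adjusted p = 1.0), and neither was called. With an equal number of peaks per library the H3K4me3 difference was called (-79.4 points, limma adjusted p = 0.00436) and the H3K27ac difference was not (-57.9 points, limma adjusted p = 0.0934). The H3K27ac call also ended without C replicate 1, 2 or 3 or H replicate 2 or 3, where the difference ran from -70.0 to -60.0 points. Ranked within its own library among the promoters that had a peak, Klf15 stood at the 95.5 to 97.6 percentile of H3K4me3 coverage in C and at 18.2, 11.8 and 75 in H. For H3K27ac it stood at 93.8 to 97.8 in C and at 50.4, 54.6 and 90.9 in H, the highest of these in H replicate 3, the library with the fewest H3K27ac peaks. Adipocyte marker promoters were less covered in the same libraries: summed over the 10 markers, H3K27ac coverage was 813 to 908 points in C and 278 to 480 in H, and H3K4me3 coverage 819 to 851 in C and 412 to 573 in H. Their part in the result was not tested.

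**Figure D3:**
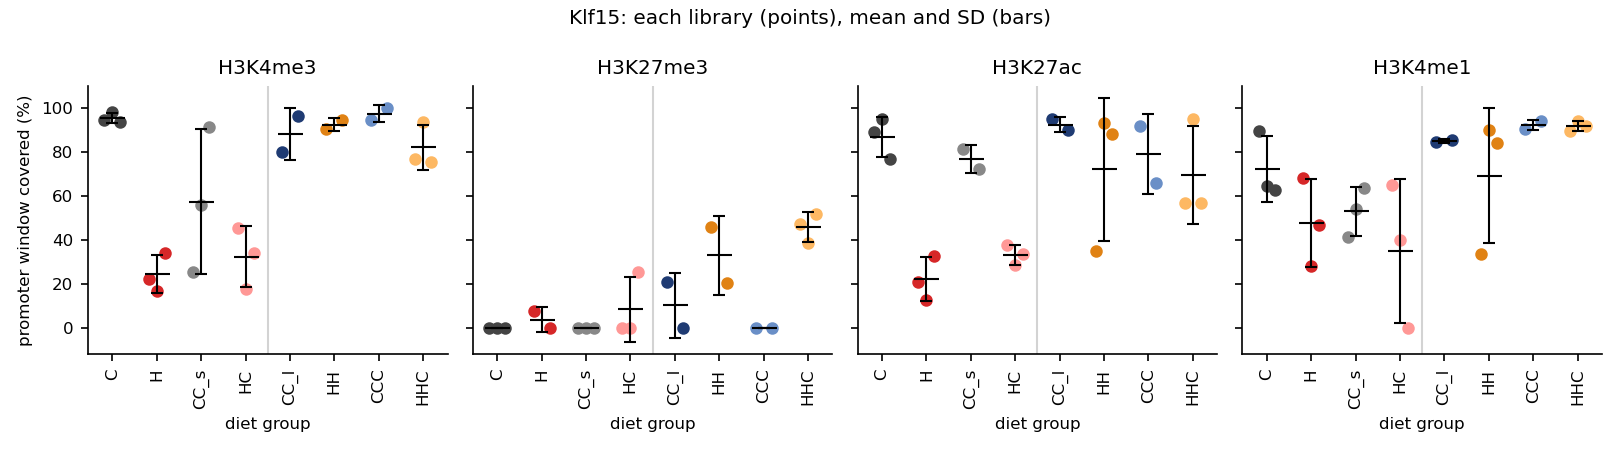
Percent of the Klf15 promoter window covered by peaks in each library (points) with the group mean and SD (bars), by diet group on the horizontal axis and 1 panel per mark. H3K4me3 and H3K27ac drop from C to H and stay low in HC for H3K27ac, while H3K27me3 is above 0 in every HH and HHC library.

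The peaks themselves show what the percentages stand for. In C, H3K4me3 ran as 1 unbroken peak across the whole start region of Klf15, 9687, 11390 and 12170 bp wide. In H it was broken into 2 or 3 short pieces, the widest of 1083, 841 and 1556 bp. The widest H3K27ac peak was 10475, 12102 and 10169 bp in C and 894, 537 and 931 bp in H, and 1180, 1691 and 1329 bp in HC against 10216 and 7048 bp in CC_s. In HH it was 1511, 12279 and 11461 bp, and in HHC 2911, 10238 and 2840 bp against 12169 and 3458 bp in CCC. The gap between the groups was wider at the last start site than at the first: within 2000 bp of the first site H3K4me3 covered 90.9% ± 4.44 in C and 39.8% ± 17 in H, and within 2000 bp of the last, 100% in every C library and 7.9% ± 8.28 in H (SD, n = 3).

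Width was tested on its own for each promoter with a peak in every library of a mark, 30 tests in all, by an exact two-sided permutation of libraries within cohorts and averaged over the 2 cohorts. Of these, 4 had an exact p under 0.05, without adjustment, and 3 of the 4 were Klf15. Its widest H3K27ac peak changed by -2.46 on the log2 scale with obesity (exact p = 0.025, 12-week cohort -3.83, 25-week cohort -1.08), where the median over 1894 promoters was -0.84. After weight loss it changed by -1.59 (exact p = 0.03, 12-week cohort -2.62, 25-week cohort -0.56) against a median of -0.04. Its widest H3K4me3 peak changed by -1.76 with obesity (exact p = 0.0333, 12-week cohort -3.30, 25-week cohort -0.23) against a median of -0.27 over 8575 promoters, and by -1.38 (exact p = 0.1) with groups from the treatment field. The remaining one was the H3K4me1 peak at Klf3, at -0.98 (exact p = 0.035) against a median of -0.27 over 342 promoters. With 10000 peaks or an equal number kept per library, Klf15 no longer had a peak in every library and could not be tested, and Klf3 alone had an exact p under 0.05. Over all promoters so tested, the share with an exact p under 0.05 was 38.5% for H3K27ac with obesity and 0.845% after weight loss, 3.77 and 3.88% for H3K4me3, and 5.85 and 1.46% for H3K4me1.

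H3K27me3, the repressive mark, was found at Klf15 mostly in the obese and formerly obese groups of the long cohort. It covered 0% of the window in all C, CC_s and CCC libraries, 20.8 and 0% in CC_l, 7.74 and 0% in H, and 0, 0 and 25.5% in HC. In HH it covered 45.7 and 20.3%, and in HHC 47.2, 38.5 and 51.8%. All 5 HH and HHC libraries were marked, beside 1 of the 4 controls of that cohort. The lower HH value lay below the 20.8% of CC_l, so HH and CC_l overlapped in coverage. The share of all promoters with this pattern over HH and HHC together was not counted. The HHC minus CCC difference was 45.8 points (SE 11.2) and missed the call (limma adjusted p = 0.0629), as did weight loss over both cohorts at 27.2 points (SE 7.49, limma adjusted p = 0.0578, exact permutation p = 0.05). Over all genes, mean H3K27me3 coverage was 8.94 to 13.9% in HHC beside 8.43 to 9.46% in CCC, and 9.17 to 14.8% in HH beside 9.5 to 16% in CC_l. With 10000 peaks kept per library Klf15 was no longer counted as gained.

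These H3K27me3 peaks shared a place. In each of the 5 HH and HHC libraries one peak lay upstream of the first start site and a second lay downstream, beginning between 203 and 3152 bp after it. The upstream peaks had in common an interval of 803 bp, from -1488 to -686 bp relative to the first start site (chr6:90461088-90461890), between genes. The peak of CC_l replicate 1 spanned it as well, and that of H replicate 1 touched it. The middle 300 bases of the interval, chr6:90461340-90461639 on the plus strand of GRCm38.p6, are printed with the same motifs in capitals to show where the mark sat.
Klf15 upstream interval: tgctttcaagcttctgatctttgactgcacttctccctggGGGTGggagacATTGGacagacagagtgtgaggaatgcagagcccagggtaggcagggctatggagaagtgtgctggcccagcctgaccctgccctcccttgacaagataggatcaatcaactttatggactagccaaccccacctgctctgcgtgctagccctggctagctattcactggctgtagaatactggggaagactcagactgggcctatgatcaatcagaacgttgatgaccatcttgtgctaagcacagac
This stretch held 2 CpG dinucleotides and was 53.0% G and C, beside the 37 CpG and 72.0% of the 250 bases at the start site. It held GGGTG and ATTGG once each.

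**Figure D4:**
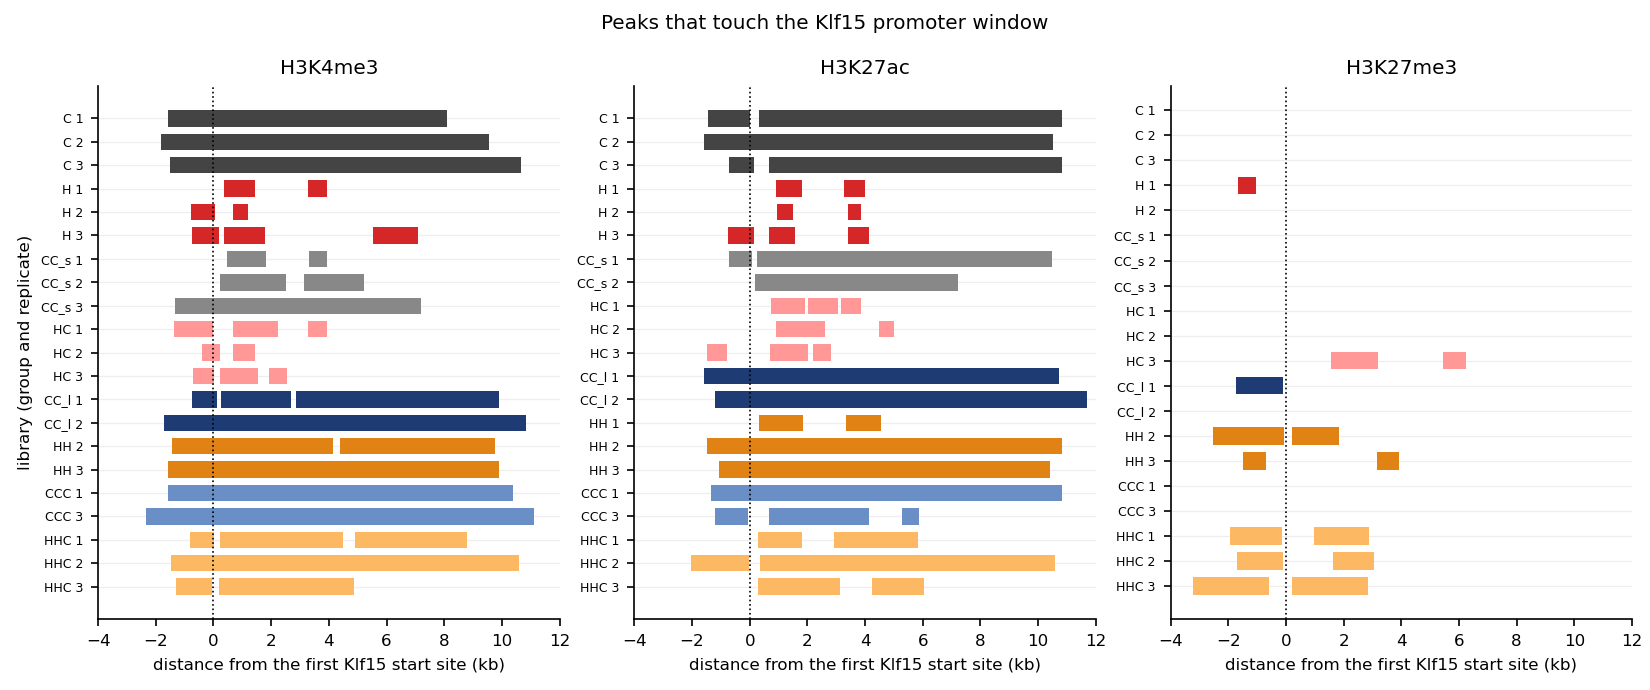
Peaks of each library near Klf15, drawn as bars by distance from its first start site in kb (horizontal axis), for H3K4me3, H3K27ac and H3K27me3. Each line is 1 library, grouped and coloured by diet group. H3K4me3 is 1 unbroken peak in each C library and short pieces in H, H3K27ac has long peaks in C and short pieces in H, and H3K27me3 peaks lie on either side of the start site in the 5 HH and HHC libraries.

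Klf4 (chr4:55527143-55532466, minus strand), a factor of early adipogenesis, changed in a different mark and in the other cohort. H3K4me1 covered 0 and 0% of its promoter in CC_l and 58.2, 56.7 and 70.4% in HH. In CCC it covered 37.2 and 36.5% and in HHC 65.9, 86.8 and 85.2%, so that every HHC library was above both controls, as was the case for 15.9% of promoters. The HH difference was 61.8 points (SE 11.5, limma adjusted p = 0.00665, 2.34% of promoters called) and the HHC difference 42.5 points (SE 11.5, limma adjusted p = 0.0202, 14.5% called), where the median over all promoters was 5.14 and 10.3 points. In the 12-week cohort 10 of 12 libraries had no H3K4me1 peak there, the exceptions being 1 C library (40.8%) and 1 H library (23%).

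The shape of the mark differed as well. In HH and HHC a peak lay on each side of the start site, for instance from 2521 to 277 bp upstream and from 252 to 3765 bp downstream in HHC replicate 2. In CCC there was only the downstream peak, from 513 to 2568 and from 540 to 2854 bp. H3K4me3 filled the gap, covering 96.3 and 100% in CC_l, 100 and 100% in HH, 94.4 and 93.4% in CCC and 100% in each of the 3 HHC libraries.

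H3K27ac at Klf4 was broader in the same groups, but not called: 44.6 and 64.3% in CC_l, 87.9, 83.1 and 100% in HH, 75.3 and 0% in CCC, and 92.5, 68.7 and 85.2% in HHC (HH 35.9 points, SE 18.1, adjusted p = 0.803 and HHC 44.5 points, SE 18.1, adjusted p = 0.115, both limma). The CCC library at 0% was replicate 3, whose mean H3K27ac coverage over all genes was 5.17% against 27.8% in the other.

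With an equal number of peaks per library the HH difference was 12.9 points (limma adjusted p = 0.731) and the HHC difference turned to -3.74 points (limma adjusted p = 0.895). With every library scaled to the same mean coverage they were 37.8 and 11.7 points, and neither was called. With 10000 peaks per library they were 12.9 and 14.9 points, and again neither was called. The HH difference was 9.19 points in a window of 500 bp. The HHC call ended without either CCC library (42.8 and 42.1 points) and without HHC replicate 3 (39.5 points). Macrophage and endothelial marker promoters carried more H3K4me1 in part of the same libraries: of 10 macrophage markers 2 or 3 were marked in CC_l, 2 to 6 in HH, 1 or 2 in CCC and 3 to 5 in HHC, with summed coverage of 66.5 to 88.9, 30.0 to 159, 28.8 to 71.9 and 103 to 284 points. Of 8 endothelial markers, summed coverage was 17 to 24.4 in CC_l, 45.8 to 120 in HH, 21.3 to 162 in CCC and 77.9 to 363 in HHC. The macrophage markers Adgre1 and Fcgr1 and the endothelial markers Tie1 and Emcn had no H3K4me1 peak in any of the 22 libraries. The part of these cells in the Klf4 values was not tested.

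**Figure D5:**
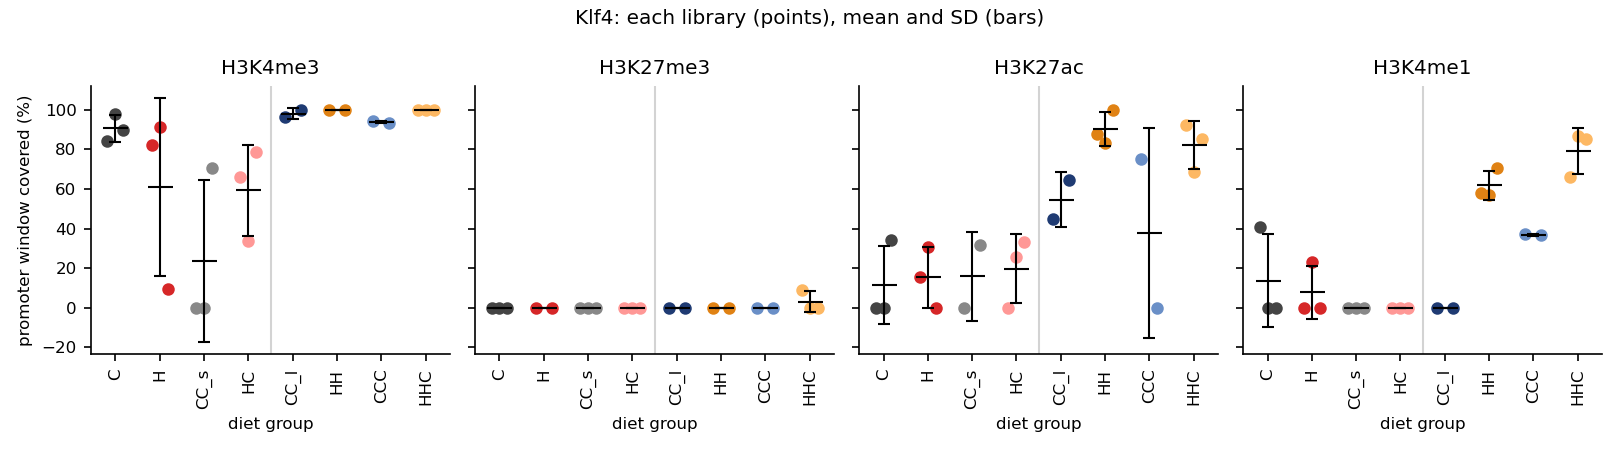
Percent of the Klf4 promoter window covered by peaks in each library (points) with the group mean and SD (bars), by diet group on the horizontal axis and 1 panel per mark. H3K4me1 is at 0 in CC_l, near 37% in CCC and above 56% in every HH and HHC library.

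Among the other drivers of adipogenesis, Klf9 (chr19:23141226-23168134, plus strand) also separated H from C in H3K27ac. The mark covered 86.1, 90.7 and 73.4% in C and 30.3, 46 and 44.9% in H, without overlap as for 35.6% of promoters, and 57.5, 60.3 and 70.8% in HC against 78.8 and 92.4% in CC_s. The H difference of -43.0 points missed the call (SE 12.8, limma adjusted p = 0.0672). H3K4me3 at Klf9 stayed high, between 57.5 and 100% in all 21 libraries, with H replicate 3 lowest.

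Klf6 and Klf13 were marked throughout. Klf6 (chr13:5861482-5870394, plus strand) had H3K4me3 over 34.1 to 97.7% of its window. Its H3K4me1 was absent from all 12 libraries of the 12-week cohort. It was present in 8 of 10 of the 25-week cohort, in every HH and HHC library and in 1 of 2 of each control. The cohorts differed in this way over all genes: H3K4me1 marked 6.09 to 19.3% of promoters in the 12-week libraries and 31.1 to 51.4% in the 25-week libraries. Klf13 (chr7:63886351-63938915, minus strand) carried H3K4me1 in all 22 libraries, over 26.5 to 92.9% of its windows, and H3K4me3 over 75, 81.9 and 78.0% in C and 53.1, 62.2 and 37.9% in H, a difference of -27.2 points that missed the call (limma adjusted p = 0.0662). Klf5 (chr14:99298691-99315036, plus strand) had its widest H3K27me3 in HH and HHC, at 100 and 19.2% and at 79.8, 38.6 and 0%, against 0 and 24.1% in CC_l and 23.4 and 39.3% in CCC. These groups overlapped, and neither Klf5 difference was called by limma.

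None of the restraining factors had a promoter difference that was called. Klf2 (chr8:72319033-72321656, plus strand), also a factor of quiescent endothelium, had H3K4me3 over 63.0, 60.6 and 55.8% of its window in C and 31.1, 59.9 and 15.6% in H, and 59.4 to 100% throughout the 25-week cohort. Its H3K27ac covered 94.7, 57.7 and 26.8% in HH against 32.1 and 31.0% in CC_l, and 91.6, 65.1 and 83.6% in HHC against 64.9 and 0% in CCC (47.7 points, SE 17.6, limma adjusted p = 0.0934). Klf3 (chr5:64803388-64832901, plus strand) had H3K4me3 over 82.5, 85.5 and 79.9% in C and 52.7, 72.0 and 14.7% in H (-36.2 points, limma adjusted p = 0.0657), without overlap as for 41.6% of promoters. Klf7 (chr1:64029447-64122282, minus strand) overlapped between diet and control in H3K4me3 in each of the 4 comparisons.

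Klf10 (chr15:38291463-38300706, minus strand) was the second gene to lose H3K4me3 in the short cohort. The mark covered 99.5, 100 and 97.7% of its window in C and 50.7, 82.6 and 23.2% in H, again without overlap as for 41.6% of promoters. The difference of -46.9 points was called (SE 11.8, limma adjusted p = 0.019), as were 13.9% of promoters. It was no longer called without H replicate 3, the H3K4me3 library with the fewest peaks (-32.4 points, limma adjusted p = 0.119), or without C replicate 2 or C replicate 3 (-46.4 and -47.6 points), in a window of 500 bp (-23.1 points), or with libraries scaled to the same mean (-16.8 points, limma adjusted p = 0.397). HC read 61.0, 51.7 and 80.4% and CC_s 55.8, 63.4 and 90.2%, which overlapped, and the long cohort stayed between 83.1 and 100%. H3K4me1 at Klf10 was marked in 4 of 10 control and 9 of 12 diet libraries, with 57.6, 67.2 and 40.5% in HH against 23 and 15.8% in CC_l (35.7 points, SE 12.3, limma adjusted p = 0.161).

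Over the gene bodies, 5 cohort differences were called. In H against C, H3K4me3 was lower over Klf15 (-57.8 points, SE 11.5, limma adjusted p = 0.024) and over Klf2 (-61.9 points, SE 15.7, limma adjusted p = 0.0466), with 3.07% of gene bodies called. In HHC against CCC, H3K27ac was higher over Klf10 (49.4 points, SE 11.9, limma adjusted p = 0.0204) and Klf4 (35.6 points, SE 10.8, limma adjusted p = 0.046), with 10.8% called, and H3K4me1 over Klf7 (25.6 points, SE 6.99, limma adjusted p = 0.0188), with 20.6% called. Over both cohorts none of 64 gene body values was called by limma, and 15 had an unadjusted p under 0.05.

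The flanks of Klf2 were the only place in the family where a difference averaged over both cohorts was called. The 50 kb on either side of it also hold Eps15l1 and Gm10282. After weight loss H3K4me3 covered 8.23 points more of them (SE 1.32, limma adjusted p = 0.00271, 5.9% of flanks called) and H3K4me1 19.5 points more (SE 4.43, limma adjusted p = 0.0109, 11.6% called). With groups from the treatment field the H3K4me3 value was 5.92 points and was not called (SE 1.91, limma adjusted p = 0.214). The averages came from the long cohort. By title, H3K4me3 covered 11.2 and 7.07% of the flanks in CCC and 23.8, 20.7 and 27.9% in HHC (15.0 points, SE 1.97, limma adjusted p = 0.000152, 15.2% called), and 4.61 and 6.44% in CC_l and 16.3 and 17.9% in HH (11.6 points, SE 2.16, limma adjusted p = 0.0106, 2.6% called). Every HH library lay above its controls, as for 43.2% of flanks, and every HHC library above its own, as for 27.2%. The direction in HH rests on the titles: with groups from the treatment field the difference was -4.5 points (SE 3.12, limma adjusted p = 0.819), and that of HHC was 10.4 points (SE 2.85, limma adjusted p = 0.0548), neither of them called.

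Other flanks differed by less. H3K4me3 was called higher for Klf3 in HH (5.5 points, SE 1.27, limma adjusted p = 0.0291, 2.6% called) and in HHC (3.79 points, SE 1.16, limma adjusted p = 0.0338, 15.2% called). It was called lower for Klf15 in HHC (-9.06 points, SE 3.02, limma adjusted p = 0.0498, 15.2% called) and for Klf13 in H against C (-2.98 points, SE 0.795, limma adjusted p = 0.0368, 11.5% called). None of these 4 calls held with groups from the treatment field, where Klf3 in HH turned to -0.221 points. In HHC, H3K27me3 was called higher around Klf10 (3.3 points, SE 0.826, limma adjusted p = 0.0325, 5.34% called). In the same group H3K4me1 was called higher around Klf4 (5.02 points, SE 1.68, limma adjusted p = 0.0337) and Klf7 (4.96 points, SE 1.2, limma adjusted p = 0.00566). Of all H3K4me1 flanks, 26.0% were called.

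H3K4me1 in the Klf2 flanks covered 9.79 and 13.5% in CCC and 49.7, 29.4 and 64.8% in HHC (36.3 points, SE 6.6, limma adjusted p = 0.000866, 26.0% called), and 7.92 and 15.7% in CC_l and 38.1, 21.7 and 30.5% in HH, which was not called (limma adjusted p = 0.216). In the short cohort both marks overlapped between HC and CC_s. H3K27ac flanks rose in HHC against CCC for Klf2, Klf3, Klf6, Klf7 and Klf13, 5 of 10 genes, by 2.51 (Klf7) to 39.8 (Klf2) points, where 31.8% of all flanks were called higher. Of the 2 CCC libraries behind these values, replicate 3 had a mean H3K27ac promoter coverage of 5.17%, against 27.8% in replicate 1. Endothelial marker promoters carried more H3K4me3 in HH and HHC than in their controls, with groups by title. The summed coverage of 8 markers was 144 to 176 points in CC_l, 493 to 548 in HH, 147 to 169 in CCC and 196 to 475 in HHC, and 3 to 6, 8, 3 and 5 to 7 markers carried a peak. In 4 of these libraries, both HH libraries among them, the treatment field disagrees with the title. The part of these markers in the Klf2 values was not tested.

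Outside promoters, the loci of the 10 genes held 90 of 59399 distal H3K27ac regions and 70 of 54813 distal H3K4me1 regions. Klf7 had the most (21 and 15) and Klf5 the fewest, 1 of each. Gains and losses were counted as for promoters. For H3K27ac 4 regions changed, against 3.09, 1.63, 3.34 and 3.26% of all distal regions in H, HC, HH and HHC, and for H3K4me1 5 regions in 6 comparisons, against 2.12, 0.868, 5.34 and 5.35%. The 3 changes of either mark in HHC were 3 of 90 and 3 of 70 regions, near those shares.

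The region that changed most often lay in an intron of Klf7, at chr1:64083185-64090516, with its midpoint 34.6 kb into the gene. H3K4me1 marked it in 0 of 10 control libraries and in 9 of 12 others: all 6 from HH and HHC, 2 from H and 1 from HC. An H3K27ac region of the same intron, chr1:64095545-64099293, was absent from all 9 controls and present in 1 H, 1 HC, 1 HH and all 3 HHC libraries. Both regions are described because they changed, and the shares given above are for single comparisons. The share of all distal regions with such a pattern over several groups was not counted.

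Upstream of Klf6, 2 H3K4me1 regions changed. The one at chr13:5836728-5838572 was marked in 2 H and 3 HH libraries and in no other, and the one at chr13:5839382-5850844 was gained in H against C but marked in 18 of 22 libraries. Downstream of Klf4, chr4:55512401-55516558 carried H3K4me1 in the 3 HHC libraries alone. At Klf2, chr8:72279374-72284042 gained H3K4me1 and chr8:72328737-72334402 gained H3K27ac in HHC against CCC, and 58.0 kb past the start of Klf3, chr5:64859378-64863409 gained H3K27ac there. The only loss was near Klf15, in an intron of its neighbour Aldh1l1 at chr6:90500733-90503091, where H3K27ac was present in both CC_s libraries and in none of the 3 HC libraries, and in 12 of 21 libraries overall.

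Genes around the family were read the same way, from lists chosen with earlier results of these data known. In H against C, H3K4me3 was called lower at 6 of 13 genes of the adipogenic programme tested (Cebpa, Cebpb, Ebf1, Ebf2, Srebf1 and Stat5a, -59.6 to -30.8 points), 4 of 14 other Klf and Sp genes (Klf1, Klf12, Klf16 and Sp4), 1 of 8 glucocorticoid-induced genes (Nfkbia, -28.3 points) and 1 of 10 cofactors (Ctbp2, the corepressor bound by Klf3, -23.0 points), and higher at none. Over all promoters 13.9% were called in this comparison, nearly all of them lower. The median differences of the lists were -28.2, -19.9, -23.7 and -21.4 points, beside -25.7 for the 10 Krüppel-like factors and -16.5 for all promoters. H3K27ac was called lower at 3 of the 13 adipogenic genes (Srebf1, Stat5a and Ebf2), beside 3.13% of all promoters called. The adipogenic list had a median of -43.1 points beside -21.2 for the Krüppel-like factors and -12.8 for all promoters.

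Presence changed at few of these genes. H3K27me3 was gained at Klf14 in H, at Slc2a4, the insulin-responsive glucose transporter and a gene that Klf15 is known to activate, in HH, and at Ebf1 and Ebf2 in HHC, and was lost at Sp4 in HHC. H3K4me1 was gained at Sp1 and at Hdac2 in H. Sp1 was the only list gene whose promoter was called over both cohorts, with 30.0 points more H3K4me1 in the obese groups (limma adjusted p = 0.0343, 0.572% of promoters called). In HH alone it had 36.3 points more (limma adjusted p = 0.0412, 2.34% called). No gene of the lists was gained or lost in H3K4me3 or H3K27ac.

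The remaining promoter calls of the lists were all at other Klf and Sp genes. H3K27me3 was lower at Sp5 in H (-49.0 points, limma adjusted p = 0.0413, 4.2% of promoters called) and in HC (-49.8 points, limma adjusted p = 0.0259, 4.14% called). In HHC against CCC, H3K4me3 was higher at Sp8 (38.4 points, limma adjusted p = 0.0208, 3.59% called). In the same comparison H3K27ac was higher at Klf16 (60.9 points, limma adjusted p = 0.0469) and Sp4 (62.0 points, limma adjusted p = 0.0375), with 5.27% called. The H3K27ac controls include CCC replicate 3, the library with 5.17% mean coverage. H3K4me1 in HHC against CCC was higher at Klf16 (43.1 points, limma adjusted p = 0.0344, 14.5% called). The obese change in H3K4me3 at Klf12, with groups by title, was 42 points higher in the 25-week than in the 12-week cohort (limma adjusted p = 0.049). With groups from the treatment field neither H3K4me3 call held, with Sp8 at 9.96 points (limma adjusted p = 1.0) and Klf12 at 42.5 points (limma adjusted p = 0.0645).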

How the data were processed

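CUT&Tag peak lists of 84 libraries were used, 20 to 22 per mark. Per the labels and the submitters' processing notes, the authors trimmed reads with Trim Galore 0.6.6, aligned them with Bowtie2 2.4.4 to GRCm38, handled them with SAMtools 1.13 and bedtools 2.30, and called peaks on each library separately with SEACR 1.3 in stringent mode at a threshold of 0.01, with replicates not pooled. The deposited files hold each peak's total and maximum signal, coverage in whole numbers without a scale shared between libraries, so signal entered only as a rank within a library, and depth and precision per value are unknown. The number of libraries, 2 or 3 per group, sets the precision. Nothing in the sources used here names a control track.

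The 10 genes, the comparison lists and the tests were chosen with earlier results of these data known. All 10 genes were named, with distal regions gained or lost (at most 6 per mark, those changed in the most comparisons first) and list genes whose promoters were gained, lost or called. Groups were taken from the titles. Promoter windows of 2000 bp either side of 41438 protein-coding start sites (GENCODE, GRCm38) were merged per gene, and the percent covered by peaks was tested with limma 3.58.1 (R 4.3.3, eBayes with trend) over all genes with a peak in at least 2 libraries, 8 groups with 1 spread, with Benjamini-Hochberg adjustment over all of them. Each contrast was obese or weight loss minus control, per cohort and averaged over both. Exact two-sided permutation tests (scipy 1.17.1) exchanged libraries within cohorts. Scripts were tested on simulated data. No 2 libraries had identical peak lists. The study calls its replicates biological, but the labels name no mice, and p-values measure the spread between these libraries. Alternatives were an equal number of peaks per library, 10000 peaks per library, scaling to the library mean, a window of 500 bp, at least 200 bp of peaks, no filter, groups from the treatment field, the replicate number as a block and each library left out. For gene bodies, flanks and widths the alternatives were chosen after seeing the data.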

Additional observations from a re-analysis of the deposited data

Results flagged for a closer look

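The change with diet differed between the cohorts, by limma's test of the 25-week minus the 12-week difference, for 6 values of the family, and each is given without an explanation. At the Klf15 promoter the obese difference in H3K4me3 was 75.3 points higher in the 25-week cohort (adjusted p = 0.046, called in 12 of 28 alternatives). In the 50 kb flanks the obese difference in H3K4me3 was 6.89 points higher for Klf3 (adjusted p = 0.0267, 15 of 26), 4.74 points higher for Klf13 (adjusted p = 0.0292, 15 of 26) and 13.6 points higher for Klf2 (adjusted p = 0.0203, 17 of 26). The weight-loss difference in the Klf2 flanks was 13.5 points higher for H3K4me3 (adjusted p = 0.0173, 18 of 26) and 33.6 points higher for H3K4me1 (adjusted p = 0.036, 12 of 26). The alternatives left the sign of 5 of the 6 as it was, and turned the obese value of the Klf2 flanks to -2.51 points with groups from the treatment field. With those groups none of the H3K4me3 flank values was called: Klf3 was at 1.16, Klf13 at 4.75 and the weight-loss value of Klf2 at 8.87 points. The obese interaction in H3K4me3 flanks was called for 4148 of 19046 genes, so the values of Klf3, Klf13 and Klf2 stand among many. Cohort, age and library preparation cannot be told apart here. Groups of 2 or 3 libraries were too small for a test of single libraries that stand apart.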

How the results depend on the processing

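The counts below cover the 10 genes. With an equal number of peaks per library, promoters gained or lost were 1 for H3K4me3 (0 as reported) and 1 for H3K27ac (0), within-cohort limma calls were 0 for H3K27ac (1) and 1 for H3K4me1 (2), distal H3K4me1 changes were 12 (6), and the Klf4 H3K4me1 difference in HHC reversed to -3.74 points. With 10000 peaks per library, gained or lost were 0 for H3K27me3 (1) and 2 for H3K27ac (0), and within-cohort calls 0 for H3K27ac and 1 for H3K4me1. Width tests with an exact p under 0.05 were 1 (4) under both settings, since Klf15 could no longer be tested. Scaled to the library mean, within-cohort calls were 0 for H3K4me3 (2), 0 for H3K27ac and 0 for H3K4me1. A window of 500 bp left 1 for H3K4me1. With H3K4me3 groups from the treatment field, gene body and flank calls over both cohorts were 1 (2), and the difference between cohorts in the obese change of the Klf2 H3K4me3 flanks reversed to -2.51 points. Where no cause is named, the cause was not tested.

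Leaving out each library in turn gave 0 to 1, 1 to 4, 0 to 3 and 1 to 3 promoters gained or lost for H3K4me3, H3K27me3, H3K27ac and H3K4me1. Calls over both cohorts ran from 0 to 1, 0 to 1, 0 to 4 and 0 to 0, within-cohort calls from 1 to 5, 0 to 2, 0 to 9 and 1 to 2. Gene body and flank calls over both cohorts ran from 2 to 8 (2 as reported, and 4 or more without H3K27ac CCC replicate 1 or 3, HH replicate 1 or HHC replicate 2, H3K27me3 HHC replicate 2, H3K4me3 HHC replicate 1 or any H3K4me1 HHC replicate), distal changes from 4 to 15 for H3K27ac and 6 to 15 for H3K4me1, and width tests from 3 to 5. The highest counts came without H3K27ac CCC replicate 1, which leaves as sole control the library with 5.17% mean coverage (9 within-cohort calls, 15 distal changes), without H3K27me3 CC_l replicate 2 (4 gained or lost), without H3K4me3 H replicate 2 (5 within-cohort calls) and without H3K4me1 HHC replicate 2 (15 distal changes). A group reduced to 1 library was assumed to vary like the others.

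Replicate numbers did not pair the libraries: of 36 pairs of same-numbered libraries, 6 had deviations that correlated above 0.1 (range -0.43 to 0.192). With the replicate block 0 promoters of the family were called over both cohorts in each mark, and over all genes the calls for obese and weight loss were 92 and 281 for H3K4me3 (94 and 341 without it), 70 and 167 for H3K27me3 (121 and 231), 3 and 4 for H3K27ac (10 and 4) and 28 and 527 for H3K4me1 (72 and 597). Read depth is unknown, so a missing peak sets no upper limit on a mark.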
